A study of Mus musculus with 9 samples.

Results

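Cytochrome P450 enzymes are haem proteins that insert an oxygen atom into drugs, toxins, steroids, bile acids and fatty acids, and the hepatocyte, the liver's metabolic cell, is their main site. The genes described here are all those in the study's gene table whose symbol begins with Cyp followed by a family number and a subfamily letter, 121 of 53713 genes. Of these, 99 were annotated as protein coding, 21 as pseudogenes and 1, Cyp4x1os, as antisense. At least 1 molecule was counted for 74 of the genes and none for 47. Cyp51, which makes a sterol precursor, carries no subfamily letter and is not among the 121.

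The study profiled single liver cells of C57BL/6J mice labelled 6-8 weeks old with a microwell method that counts unique molecular identifiers (UMIs), in which each UMI stands for 1 captured RNA molecule. The animals were of the genotype labelled CluKO, given recombinant human clusterin during carbon tetrachloride (CCl4) injection of unstated length (6 samples), or wild type with CCl4 for 0, 2 or 4 weeks (1 sample each). The 6 CluKO samples lie in a single matrix that does not say which cell came from which sample, and the design text speaks of 3 such mice. The wild-type rows were not analysed here, so every value below compares cells within the matrix labelled CluKO, and no level can be set against wild-type or untreated liver.

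That matrix counts as 1 sample, so no spread between animals and no test between conditions could be had. Intervals in brackets are exact 95% intervals, which cover counting error only. A level is given as CPM, the gene's UMIs per 1000000 UMIs of the cells concerned, and needs no correction for gene length because each UMI is a molecule. The matrix held 28912707 UMIs in 4694 cells with distinct barcodes, of which 4610 were kept. Clu was counted in it at 1876 CPM in hepatocyte-gated cells and 8.41 CPM in lymphoid-gated cells, against the label, so the cells are called those of the matrix labelled CluKO. The labels do not state which part of Clu is deleted, so these counts do not check the genotype.

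Cells were classed by counts of marker genes, none of them a Cyp gene. Hepatocyte-gated cells were those with more than 0.349% of their UMIs in 8 hepatocyte genes such as Alb and Apoa1, unless left out as mixed. Of 890 kept cells above that limit, 124 with markers of another lineage were so left out. This left 766 cells, with a median of 3335.5 UMIs per cell, and all 8 genes were seen. Of the kept cells, 258 lay within 1.5-fold of that limit, 41 of them hepatocyte-gated. Lymphoid-gated cells (239 cells: 185 plasma, 38 T, 13 B and 3 NK), with a median of 7737 UMIs, served to judge free RNA, the RNA of broken cells that is caught with every cell. In them, the summed level of 9 other hepatocyte genes, used to gauge free RNA, was 0.710% of that in hepatocyte-gated cells.

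Most hepatic P450 enzymes sit in the endoplasmic reticulum and take electrons from the reductase encoded by Por, while a few in mitochondria take them from ferredoxin. Families 1 to 3 handle mainly foreign compounds under the receptors AHR, CAR and PXR, and higher-numbered families mainly fatty acids, sterols, bile acids and retinoids. Liver lobules are zoned, and hepatocytes around the central vein carry more of several P450 enzymes than those around the portal tract. CYP2E1, a pericentral enzyme, converts CCl4 into the radical that injures the cell.

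The promoters of 4 genes are shown because these are abundant hepatocyte genes on either side of the zonation comparison below: Cyp2e1 and Cyp1a2 were higher in pericentral-scored cells and Cyp2f2 and Cyp3a11 were lower, Cyp3a11 only just past the 2-fold limit. Each runs from 250 bases before to 50 bases after the gene's RefSeq start (GRCm38.p6), at chr7:140763569-140763868 on the plus strand for Cyp2e1, chr9:57683606-57683905 on the minus strand for Cyp1a2, chr7:27119705-27120004 on the plus strand for Cyp2f2 and chr5:145879805-145880104 on the minus strand for Cyp3a11. Capitals mark matches to the motifs searched.
Cyp2e1: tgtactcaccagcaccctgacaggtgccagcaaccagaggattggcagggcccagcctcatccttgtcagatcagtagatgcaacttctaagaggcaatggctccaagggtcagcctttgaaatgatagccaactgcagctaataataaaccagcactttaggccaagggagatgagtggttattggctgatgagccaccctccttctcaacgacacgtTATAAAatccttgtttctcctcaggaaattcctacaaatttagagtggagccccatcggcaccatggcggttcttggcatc
Cyp1a2: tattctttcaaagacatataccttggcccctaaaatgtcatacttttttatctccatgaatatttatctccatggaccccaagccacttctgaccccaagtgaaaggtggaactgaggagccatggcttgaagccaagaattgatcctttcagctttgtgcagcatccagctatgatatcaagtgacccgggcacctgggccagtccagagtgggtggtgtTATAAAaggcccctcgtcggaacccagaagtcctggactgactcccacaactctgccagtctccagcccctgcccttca
Cyp2f2: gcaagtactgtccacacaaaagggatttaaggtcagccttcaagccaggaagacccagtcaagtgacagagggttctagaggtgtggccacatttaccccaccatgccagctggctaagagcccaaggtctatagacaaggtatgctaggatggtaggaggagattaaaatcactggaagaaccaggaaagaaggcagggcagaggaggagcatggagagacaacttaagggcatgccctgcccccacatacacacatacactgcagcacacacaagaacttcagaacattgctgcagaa
Cyp3a11: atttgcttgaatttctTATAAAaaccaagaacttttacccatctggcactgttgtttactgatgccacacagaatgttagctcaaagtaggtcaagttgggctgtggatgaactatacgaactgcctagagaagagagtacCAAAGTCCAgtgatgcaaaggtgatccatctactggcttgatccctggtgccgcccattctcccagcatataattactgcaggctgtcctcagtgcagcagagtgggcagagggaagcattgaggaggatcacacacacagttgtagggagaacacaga

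The motifs searched on both strands were the TATA box (TATAAA), an HNF4 site (CAAAGTCCA), an HNF1 half-site (GTTAAT), a C/EBP site (TTGCNNAA) and the xenobiotic response element (TNGCGTG). None of the 5 overlaps another in these windows. The TATA box began at position -31 in Cyp2e1 and -29 in Cyp1a2, counted with -1 as the base before the start. In Cyp3a11 the same letters lay at -234 and the HNF4 letters at -109, and the Cyp2f2 window held none of the 5 motifs. Of all 32851 promoters in the table, 13.6% held the TATA box letters and 0.475% the HNF4 letters. Of the 87 promoters of the 77 Cyp genes found in the table, the shares were 39.1% and 12.6%. The other motifs were found in 7.10% (HNF1), 10.8% (C/EBP) and 5.07% (xenobiotic response element) of all promoters, and in 12.6%, 24.1% and 1.15% of the Cyp promoters.

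Hepatocyte-gated cells held 10339 of the 17665 Cyp UMIs in kept cells, or 58.5%. Their summed level was 3055 CPM (2996 to 3114), against 68.7 CPM (57.8 to 81.2) in lymphoid-gated cells. Per hepatocyte-gated cell the Cyp share of UMIs had quartiles of 0.0947%, 0.191% and 0.391%. A few genes carried most of it: the top 5 held 60.7% of the Cyp UMIs and the top 20 held 91.4%. The Cyp2c subfamily held 30.4%, Cyp2e 19.95%, Cyp3a 11.8%, Cyp2d 10.5% and Cyp1a 10.3%. Members of Cyp2a, Cyp2c, Cyp2d, Cyp3a and Cyp4a are close copies, most of them lying side by side, so counts within one of these subfamilies may be split between neighbours and single members are uncertain.

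The set of hepatocyte-gated cells was compared with lymphoid-gated cells to ask which Cyp RNAs stood above free RNA. A gene was counted as higher or lower where its CPM ratio was at least 2 and both sets together held at least 30 UMIs. Of 33 genes with enough counts, 31 were higher in hepatocyte-gated cells, against 44.7% of all genes in that comparison, and 1 was lower, against 13.2% of all genes. Lymphoid-gated cells held 139 Cyp UMIs in all, 40 of them of Cyp20a1. Of the 33, 32 reached 30 UMIs in hepatocyte-gated cells alone and so entered through the set where they are high. The count of 31 was thus in part set by this filter. The median log2 ratio was 4.97 for the Cyp genes, 0.81 for all 8905 genes compared and 7.21 for the 9 gauge genes. The gene that was lower was Cyp20a1, a P450 whose substrate is not known, at 6.80 against 19.8 CPM. Cyp4f18 stood at 9.16 CPM in hepatocyte-gated cells and 9.40 CPM in lymphoid-gated cells, a ratio of 0.975 (0.534 to 1.83).

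Cyp2e1 (ENSMUSG00000025479, GRCm38 chromosome 7, 140763739 to 140774987, plus strand) was the most abundant, at 609.5 CPM (583 to 636) in hepatocyte-gated cells against 1.48 CPM in lymphoid-gated cells. It ranked 271 among all genes in hepatocyte-gated cells. A Cyp2e1 UMI was found in 48.0% of hepatocyte-gated cells (44.5 to 51.6) and 1.26% of lymphoid-gated cells, or 38.1% and 0.208% with every cell thinned to 2000 UMIs. Its counts were unevenly spread, with up to 215 UMIs in a single cell.

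Cyp2c70, the mouse enzyme that makes muricholic acids, followed at 428 CPM (406 to 450.1) in hepatocyte-gated cells against 0.989 CPM in lymphoid-gated cells, and was seen in more hepatocyte-gated cells than Cyp2e1, 56.9% (41.8% thinned). Cyp1a2, which oxidises caffeine and aromatic amines, stood at 308 CPM (290 to 327) against 1.48 CPM. Cyp3a11, the chief Cyp3a enzyme of mouse liver and a PXR target, stood at 299.6 CPM (281 to 319) against 1.98 CPM. The intervals of these last 2 overlap, so their order is not resolved. Cyp2c29, a CAR-responsive enzyme of the mouse, stood at 209 CPM (193 to 225) against 0.989 CPM, and Cyp2f2, which oxidises naphthalene, at 134 CPM (122 to 146) against 0.495 CPM. The lymphoid levels of these 6 genes rest on 1 to 4 UMIs each, so their ratios are loosely bounded, as for Cyp2e1 at 411-fold (140.4 to 1994).

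The next 14 genes by level came mostly from the Cyp2c and Cyp2d subfamilies. In Cyp2d, whose human counterpart handles many drugs, Cyp2d10 stood at 103 CPM, Cyp2d26 at 88.6, Cyp2d9 at 71.8 and Cyp2d40 at 38.1 CPM in hepatocyte-gated cells, and none exceeded 1.48 CPM in lymphoid-gated cells. In Cyp2c, Cyp2c50 stood at 97.8 CPM, Cyp2c68 at 64.4, Cyp2c23 at 46.4 and Cyp2c67 at 31.0 CPM, again against at most 1.48 CPM. All 8 lay well above the lymphoid level. Cyp2a12 stood at 81.0 CPM, and Cyp2j5, an arachidonic acid epoxygenase, at 67.4 CPM. Cyp3a13 stood at 38.4 CPM and Cyp4f14, a fatty acid and vitamin E hydroxylase, at 24.5 CPM. Cyp27a1, the mitochondrial sterol hydroxylase, stood at 31.0 CPM, and Cyp4v3, a fatty acid hydroxylase, at 21.9 CPM against 3.96 CPM in lymphoid-gated cells.

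Genes of bile acid synthesis other than Cyp2c70 stood at 31.0 CPM or less. Cyp7a1, the rate-limiting enzyme of bile acid synthesis, gave 31 UMIs in hepatocyte-gated cells (9.16 CPM, 6.22 to 13.0) in 2.74% of them. Cyp8b1, which sets the balance towards cholic acid, gave 7 UMIs (2.07 CPM, 0.832 to 4.26). Cyp27a1 and Cyp7b1 of the alternative pathway gave 105 and 41 UMIs. Lymphoid-gated cells gave 0 UMIs of Cyp7a1 and Cyp8b1, where 3 counts would correspond to 1.48 CPM, so Cyp7a1 was at least 6.17-fold higher in hepatocyte-gated cells against that floor, and 4.73-fold at the lower limit of the counting interval. Genes known to respond to inducers differed widely in level. Cyp3a11 and Cyp2c29, described above, gave 1014 and 706 UMIs in hepatocyte-gated cells. Others gave few counts: Cyp2b10, a CAR target, gave 30 UMIs and Cyp4a10, a PPARA target, gave 29. Cyp1a1, an AHR target, gave 17, of which 10 lay in a single cell.

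**Figure D1:**
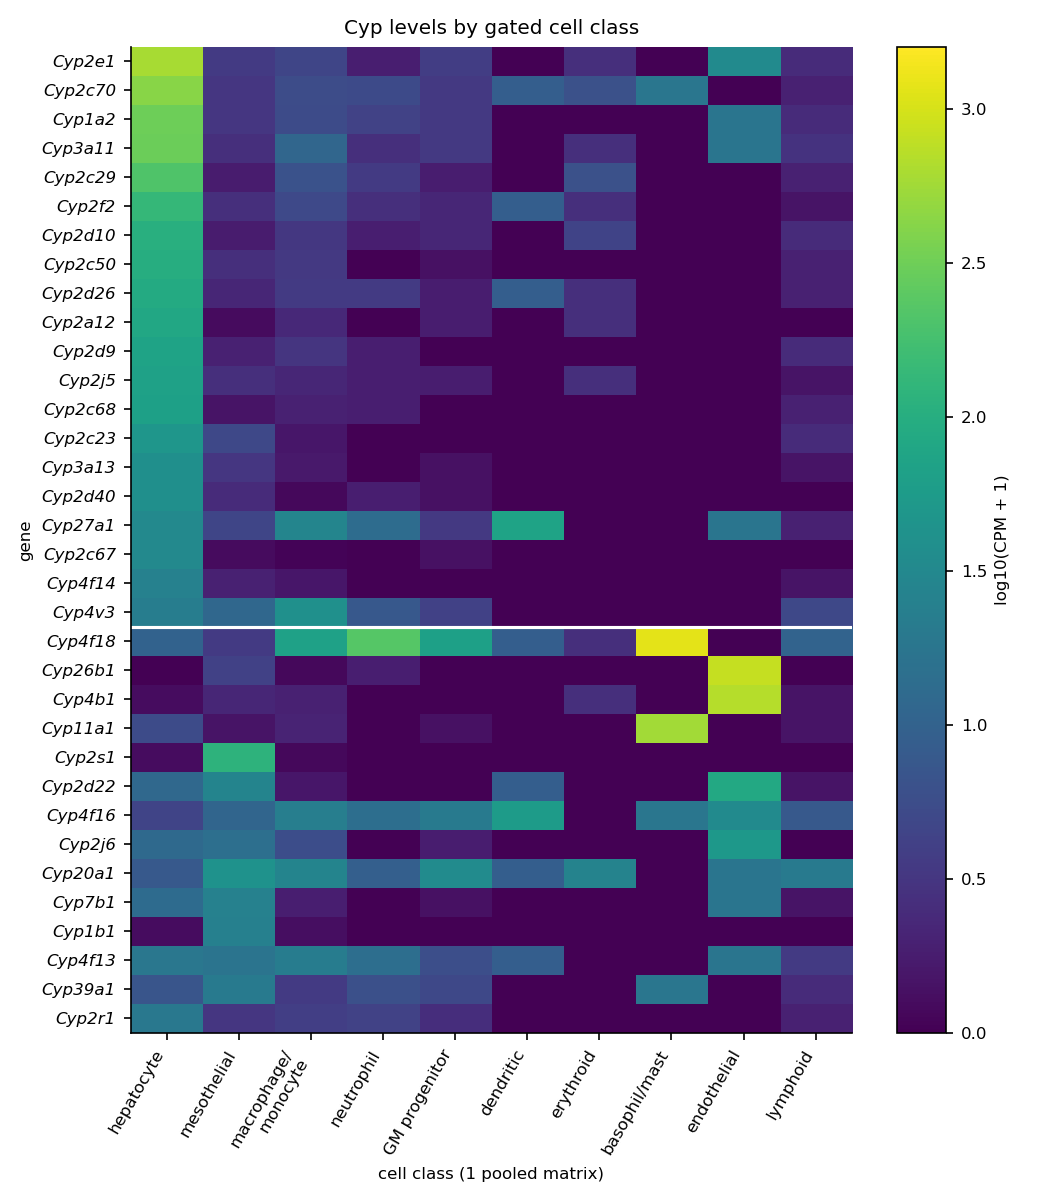
Level of Cyp genes in each gated cell class, as log10(CPM + 1), with classes in columns from hepatocyte to lymphoid and genes in rows. Above the white line are the 20 genes highest in hepatocyte-gated cells, led by Cyp2e1 at 609.5 CPM, and below it the genes that stood at least 3 times above free hepatocyte RNA in another class, such as Cyp2s1 in mesothelial-gated cells.

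Hepatocytes were then ordered by a zonation index to ask how the Cyp genes vary between the pericentral and periportal sides. The index is the share of pericentral genes (10 genes such as Glul and Oat) among UMIs of these and 12 periportal genes (such as Sds and Hal), and uses no Cyp gene. Among 707 cells with at least 10 such UMIs, the 236 cells with the highest index (above 27.9%) was compared with the 236 cells with the lowest (below 8.88%). Their median depths were 3781.5 and 3056.5 UMIs per cell.

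Of 24 Cyp genes with enough counts, 3 were higher in pericentral-scored cells (7.38% of all genes were) and 4 were lower (4.2% of all genes were). The median log2 ratio of the 24 was -0.12, against 0.11 for all 6263 genes compared. The middle of the group thus lay near even, and a few members differed widely in opposite directions.

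Cyp2e1 had the highest ratio. It stood at 1101 CPM in pericentral-scored cells against 85.9 CPM in periportal-scored cells, 12.8-fold higher (10.2 to 16.3), with 1397 and 78 UMIs. Cyp1a2 stood at 435 CPM in pericentral-scored cells against 171 CPM in periportal-scored cells, 2.55-fold higher (2.13 to 3.07). Cyp2c55 stood at 29.2 against 9.91 CPM, 2.94-fold higher (1.40 to 6.94), from 37 and 9 UMIs. The next highest ratios were 1.89 for Cyp2c68 (1.32 to 2.77), 1.79 for Cyp2c29 (1.42 to 2.26) and 1.70 for Cyp27a1 (0.972 to 3.07), none past the 2-fold limit.

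On the other side, Cyp2f2 stood at 11.0 CPM in pericentral-scored cells against 318 CPM in periportal-scored cells, 28.8-fold lower (16.9 to 53.4), the widest difference of the 24. Cyp2j5 stood at 22.1 against 110.1 CPM, 4.99-fold lower (3.25 to 7.88). Cyp3a25 stood at 11.0 against 29.7 CPM, 2.69-fold lower (1.36 to 5.56), from 14 and 27 UMIs. Cyp3a11 stood at 174 against 365 CPM, 2.10-fold lower (1.76 to 2.50). With a mean of per-cell shares the log2 ratio of Cyp3a11 was -0.81, short of the 2-fold limit, and 3 Cyp genes were lower. Cyp2d26 and Cyp2a12 came next, 1.85-fold and 1.74-fold lower. In the same cells Cyp2c70 differed little, at 461 against 428 CPM, a ratio of 1.08 (0.946 to 1.23), as did Cyp2d10, at 112 against 109 CPM. Cyp7a1 gave 12 UMIs in pericentral-scored and 4 in periportal-scored cells, and Cyp8b1 gave 0 and 5, too few for the comparison.

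Clu-high cells, described below, were unevenly placed, with 30 of the 55 in the pericentral-scored set and 9 in the periportal-scored set. Without the Clu-high cells Cyp2e1 was 11.0-fold higher (983 against 89.5 CPM), Cyp1a2 2.09-fold higher, and Cyp3a11 no longer passed the 2-fold limit, at 195 against 322 CPM. Without the single cell that held 215 Cyp2e1 UMIs, Cyp2e1 was 11.2-fold higher (8.91 to 14.3). Across the 766 hepatocyte-gated cells, thinned to 2000 UMIs, the rank correlation of Cyp2e1 was 0.30 with Cyp1a2, 0.23 with Cyp2c29 and -0.27 with Cyp2f2. These cells share 1 matrix and sparse counts, and the correlations are given as a description.

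**Figure D2:**
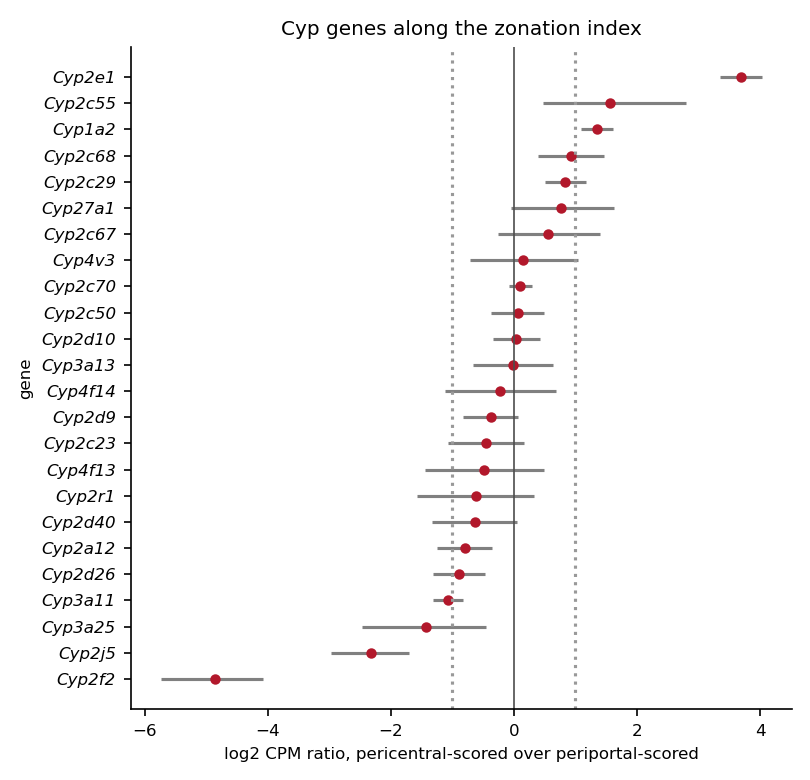
Log2 ratio of CPM in the 236 pericentral-scored over the 236 periportal-scored hepatocytes for the 24 Cyp genes with at least 30 UMIs in both together. Points are ratios, bars are 95% intervals of counting error and dotted lines mark a 2-fold ratio: Cyp2e1 lies at 3.68 and Cyp2f2 at -4.85, with most genes between the dotted lines.

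Hepatocyte-gated cells other than the Clu-high ones were split at the median share of albumin in their UMIs, 0.260%, into 355 low-albumin and 356 high-albumin cells of like depth (medians of 3350 and 3302 UMIs). The summed Cyp level was 1211 CPM in low-albumin cells against 4310 CPM in high-albumin cells. Of 29 Cyp genes with enough counts, 0 were higher in low-albumin cells (4.09% of all genes were) and 26 were lower (6.89% of all genes were). The median log2 ratio was -1.89 for the Cyp genes, 0.09 for all genes and -2.43 for the 9 gauge genes. The Cyp genes and these hepatocyte genes were thus lower together. The split was itself made on Alb, a gene of the hepatocyte gate. The summed gate genes stood at 19843 CPM in low-albumin cells against 50068 CPM in high-albumin cells. Some Cyp genes also reached 30 UMIs mainly through the high-albumin cells, such as Cyp3a25 (6 and 63 UMIs) and Cyp2d22 (4 and 26 UMIs). Summed macrophage markers stood at 828 CPM in low-albumin cells, with 16 of 17 markers seen, against 348 CPM in high-albumin cells, with 17 of 17 seen. Summed dendritic markers stood at 54.6 CPM in low-albumin cells (9 of 11 seen) against 10.0 CPM in high-albumin cells (4 of 11), and T markers at 35.5 CPM (11 of 12) against 5.34 CPM (4 of 12). Marker sums of the remaining lineages are not given here, so these values do not show that RNA of every other lineage was higher in low-albumin cells. The part of RNA from other cells in the difference was not tested.

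The widest differences were those of Cyp3a11 and Cyp3a25. Cyp3a11 stood at 45.4 CPM in low-albumin cells against 540.3 CPM in high-albumin cells, 11.9-fold lower (9.30 to 15.4). Cyp3a25 was 10.7-fold lower (3.95 against 42.1 CPM) and Cyp4f14 8.75-fold lower (5.26 against 46.1 CPM). Cyp2j5 and Cyp2c68 followed, 6.84-fold and 6.70-fold lower, then Cyp2d22 and Cyp4v3, each at a log2 ratio of -2.72. Cyp1a2 stood at 86.9 against 407 CPM, Cyp2c70 at 147 against 596 CPM and Cyp2f2 at 46.7 against 197 CPM, each between 4 and 5-fold lower. Cyp27a1 was 3.04-fold lower, while Cyp7a1 gave 10 UMIs in low-albumin cells and 13 in high-albumin cells.

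Cyp2e1 differed less than most, at 342 CPM in low-albumin cells against 721 CPM in high-albumin cells, 2.11-fold lower (1.90 to 2.35). The smallest differences were those of Cyp4f18 (9.21 against 11.4 CPM), Cyp2d40 (32.9 against 45.4 CPM) and Cyp2c23 (36.8 against 54.1 CPM), the only 3 of the 29 not past the 2-fold limit. Cyp4f13, Cyp2r1, the vitamin D hydroxylase, and Cyp2c50 came just past it, 2.03, 2.09 and 2.09-fold lower.

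The 2 splits overlapped unevenly: low-albumin cells made up 121 of the pericentral-scored set and 86 of the periportal-scored set, against 85 and 141 high-albumin cells. Within the pericentral-scored set, Cyp2e1 stood at 468 CPM in low-albumin cells against 1732 CPM in high-albumin cells, a log2 ratio of -1.89. Within the periportal-scored set it stood at 99.5 against 84.2 CPM, a ratio of 1.18 (0.723 to 1.90), from 30 and 48 UMIs, so no difference was detectable there at this depth. Cyp3a11 kept its direction in both, at 35.9 against 428 CPM within the pericentral-scored set and 73.0 against 454 CPM within the periportal-scored set. Cyp2f2 was lower within the periportal-scored set, at 133 against 333 CPM, and gave only 9 and 4 UMIs within the pericentral-scored set.

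Clu-high hepatocytes, in which Clu made up 0.3% or more of the UMIs, numbered 55, against 711 others, with median depths of 3393 and 3332 UMIs. The 5 deepest of the 55 cells held 42.0% of their UMIs, so these sums rest on few cells. The summed Cyp level was 5566 CPM in Clu-high cells against 2749 CPM in the others. Of 32 Cyp genes with enough counts, 12 were higher in Clu-high cells (10.6% of all genes were) and 1 was lower (14.4% of all genes were). This balance depended on the limits set: with Clu at 0.5% or more, 6 were higher and 6 lower, and with the hepatocyte gate at 4 times its threshold, 7 were higher and 3 lower. The median log2 ratio was 0.66 for the Cyp genes, -0.19 for all genes and 1.41 for the 9 gauge genes. Alb itself stood at 17754 CPM in Clu-high cells against 4836 CPM in the others.

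Cyp2j6, of the epoxygenase subfamily, had the widest ratio, at 43.5 CPM in Clu-high cells against 7.62 CPM in the others, 5.71-fold higher (2.82 to 11.3), from 16 and 23 UMIs. Cyp4v3 was 5.29-fold higher (78.9 against 14.9 CPM), Cyp2d10 4.05-fold (313 against 77.2 CPM) and Cyp2c68 3.56-fold (179.6 against 50.4 CPM). Cyp1a2 stood at 819 against 246 CPM, 3.33-fold higher (2.90 to 3.81). Cyp2e1 stood at 1265 against 529.7 CPM, 2.39-fold higher (2.15 to 2.65), but 215 of its 465 UMIs in Clu-high cells lay in a single cell. Without that cell Cyp2e1 stood at 765 against 529.7 CPM, 1.44-fold higher (1.26 to 1.65) and under the 2-fold limit, and 9 Cyp genes were higher and 2 lower. Cyp7a1 was 2.85-fold higher (1.10 to 6.61), from only 8 and 23 UMIs, was lower under a stricter Clu limit of 0.5%, at a log2 ratio of -0.95, and gave only 3 UMIs in Clu-high cells without that cell. The other 5 that were higher were Cyp2d9, Cyp2c70, Cyp2d22, Cyp2c55 and Cyp27a1, between 2.05 and 2.63-fold, with an interval for Cyp2d22 that includes 1 (0.867 to 4.89). As a mean of per-cell shares, which gives deep cells no more weight, Cyp2c55 was not higher (log2 ratio -0.13), and Cyp2e1, at a log2 ratio of 0.71 in place of 1.26, was again under the limit. Without the cell richest in Cyp2e1, Cyp2c55 and Cyp27a1 also lost their calls, at log2 ratios of -0.14 and 0.81.

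Cyp3a25 was the gene that was lower, with 2 UMIs in Clu-high cells (5.44 CPM) against 69 in the others (22.9 CPM), a ratio of 0.238 (0.0282 to 0.893). Cyp2c54, Cyp4f14, Cyp2c50, Cyp2j5 and Cyp2d40 had the next lowest ratios among genes seen in both sets, between 0.560 and 0.765, none past the limit. Cyp4f18 gave 0 UMIs in Clu-high cells against 31 in the others, a ratio of at most 0.794 against the floor of 3 counts. The upper limit of its counting interval was 1.04, so its place in that order is not known. Cyp3a11 was close to even, at 370.0 against 291 CPM, a ratio of 1.27 (1.05 to 1.52). Cyp2f2, the gene with the lowest pericentral over periportal ratio, stood at 234 against 121 CPM, a ratio of 1.93 (1.51 to 2.45), just under the limit. Within Cyp2d, Cyp2d26 (1.30) and Cyp2d40 (0.765) were not past the limit, unlike Cyp2d10, Cyp2d9 and Cyp2d22. Among pericentral-scored cells alone (30 Clu-high and 206 others), Cyp1a2 was 2.60-fold higher, Cyp2d10 3.82-fold and Cyp2e1 1.54-fold (1515 against 983 CPM), the last under the limit.

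**Figure D3:**
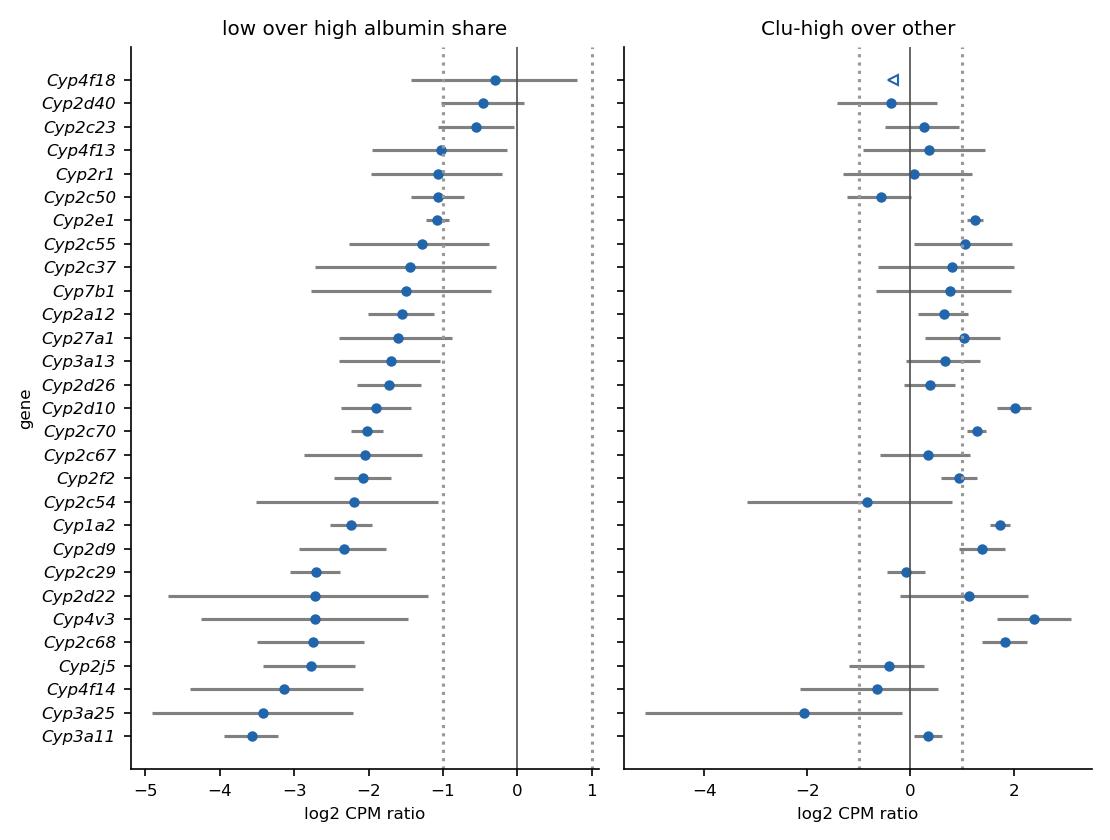
Log2 ratio of CPM for the 29 Cyp genes compared by albumin share, in low-albumin over high-albumin hepatocytes (left) and in Clu-high over other hepatocytes (right). Points are ratios, bars are 95% intervals of counting error, dotted lines mark a 2-fold ratio and the open triangle marks Cyp4f18, which had 0 UMIs in Clu-high cells and is set at the floor of 3 counts. On the left all points lie below 0, and on the right they fall on both sides of it.

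Outside hepatocytes, each class was compared with the hepatocyte RNA it would hold if every Cyp UMI came from hepatocytes, that is, the hepatocyte level times the class's level of the 9 gauge genes relative to hepatocyte-gated cells. A Cyp gene was counted where it gave at least 30 UMIs and stood at least 3 times above this. Over the classes, 28 pairs of gene and class passed. Since most genes are not hepatocyte genes, nearly all genes pass: 99.4% in mesothelial-gated, 97.3% in macrophage-gated, 99.2% in neutrophil-gated, 99.6% in progenitor-gated, 100% in dendritic-gated, 99.7% in erythroid-gated, 100% in basophil/mast-gated, 100% in endothelial-gated and 99.3% in lymphoid-gated cells.

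Macrophage-gated cells (2090 cells, median 5004 UMIs) had Cyp genes on both sides of that limit. Of 17 Cyp genes with at least 30 UMIs there, 9 passed and 8 did not. The 8 were all abundant hepatocyte genes, with observed levels from 0.231 times (Cyp2e1, 3.72 CPM) to 1.302 times (Cyp3a11, 10.3 CPM) the expected hepatocyte RNA. The gauge genes stood at 2.64% of their hepatocyte level in macrophage-gated cells, against 0.710% in lymphoid-gated cells, and Cyp3a11 stood at 1.98 CPM in lymphoid-gated cells. How hepatocyte RNA came to be counted in macrophage-gated cells was not tested. Cyp4f18, which in the mouse degrades a leukotriene that attracts neutrophils, led the 9 at 67.2 CPM (62.8 to 71.9), in 25.7% of macrophage-gated cells (13.0% thinned) against 5.86% of lymphoid-gated cells (2.85% thinned). Cyp4v3 stood at 39.7 CPM, above its hepatocyte level of 21.9 CPM, and Cyp27a1 at 27.8 CPM, near its hepatocyte level of 31.0 CPM. Cyp20a1 (26.8 CPM), Cyp4f16 (22.6), Cyp4f13 (21.3), Cyp2j6 (4.67), Cyp2r1 (2.93) and Cyp39a1 (2.45 CPM) made up the rest.

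Mesothelial-gated cells (489 cells, median 7211 UMIs), which line the liver surface, had 10 Cyp genes with at least 30 UMIs and all 10 passed. Cyp2s1, an enzyme found mainly in epithelia outside the liver, stood at 115 CPM (105 to 126), in 43.1% of cells (18.7% thinned), against 0.295 CPM in hepatocyte-gated cells and 0 UMIs in lymphoid-gated cells, where 3 counts would be 1.48 CPM. Its 468 UMIs made it the most abundant Cyp gene of that class. Cyp1b1, which oxidises oestrogens and retinol, stood at 23.4 CPM (18.9 to 28.6) against 0.295 CPM in hepatocyte-gated cells, where it gave 1 UMI. Cyp20a1 (41.7 CPM), Cyp2d22 (26.9), Cyp7b1 (24.2) and Cyp39a1 (19.0 CPM) followed, the last 2 being hydroxylases of oxysterols. Cyp4f13, Cyp2j6, Cyp4v3 and Cyp4f16 stood between 10.1 and 16.0 CPM. Cyp2e1 in these cells was 2.47 CPM, 0.397 times the expected hepatocyte RNA.

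Granulocytes and their precursors were led by Cyp4f18. It stood at 225 CPM (199 to 253) in neutrophil-gated cells, in 45.8% of 275 cells (32.1% thinned), and at 65.3 CPM (55.7 to 76.1) in 233 granulocyte-monocyte-progenitor-gated cells. No other Cyp gene reached 30 UMIs in neutrophil-gated cells, while Cyp20a1 (33.7 CPM) and Cyp4f16 (19.2 CPM) did in the progenitors. In the 18 basophil/mast-gated cells Cyp4f18 stood at 1172 CPM (912 to 1483) and Cyp11a1, the cholesterol side-chain cleavage enzyme of steroid-making cells, at 578 CPM (399.9 to 807), seen in 17 and 13 of the cells.

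In the 18 endothelial-gated cells Cyp26b1, which degrades retinoic acid, stood at 818 CPM (605 to 1081) in 9 cells, and Cyp4b1, a fatty acid and xenobiotic hydroxylase, at 701 CPM (505 to 948) in 10 cells. Cyp26b1 gave 0 UMIs in hepatocyte-gated cells and Cyp4b1 gave 1. Both small classes rest on few cells, with the 5 deepest holding 37.0% of the UMIs of the basophil/mast-gated and 41.2% of the endothelial-gated cells. In lymphoid-gated cells Cyp20a1 alone passed, at 19.8 CPM (14.1 to 26.9). No gene reached 30 UMIs in dendritic-gated (33) or erythroid-gated (87) cells, and Cyp27a1 gave 9 UMIs (71.3 CPM) in the dendritic-gated ones.

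**Figure D4:**
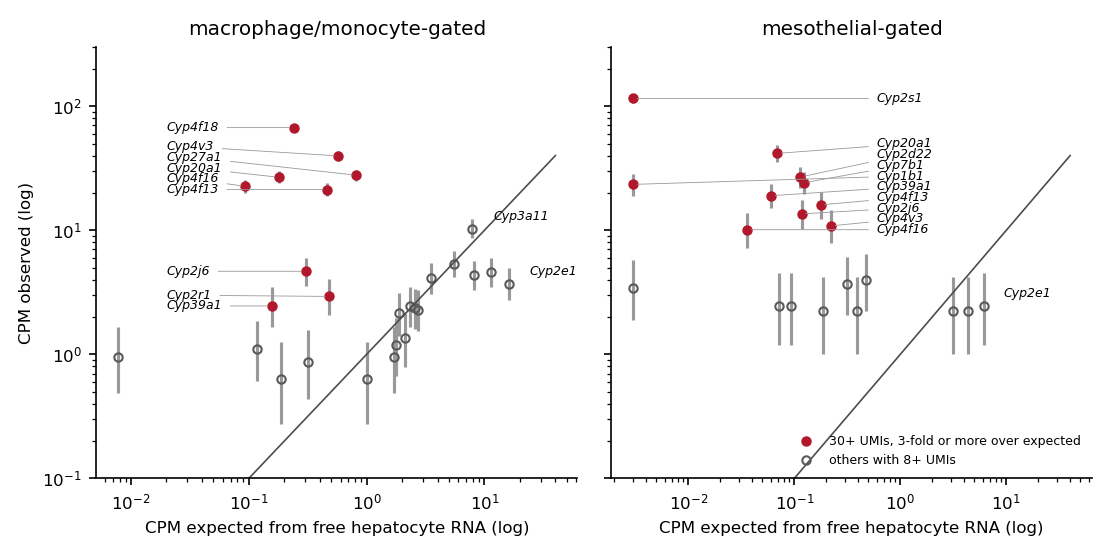
Observed level against the level expected from free hepatocyte RNA, both in CPM on log axes, for Cyp genes with at least 8 UMIs in macrophage/monocyte-gated and mesothelial-gated cells. The line marks equality, bars are 95% intervals of counting error, filled points are genes with at least 30 UMIs and at least 3 times the expected level: Cyp2e1 lies under the line in both classes, Cyp4f18 in macrophages and Cyp2s1 in mesothelial cells far above it.

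Within mesothelial-gated cells, those with 2 or more UMIs of Enpp2, the gene of autotaxin (113 cells), were compared with the other 376. Of 10 Cyp genes, 2 were higher in Enpp2 cells (5.37% of all genes were) and 1 was lower (8.47% of all genes were). Cyp1b1 stood at 84.3 CPM in Enpp2 cells against 9.13 CPM in the others, 9.24-fold higher (5.91 to 14.7). Cyp2d22 stood at 63.6 against 18.3 CPM, 3.48-fold higher (2.34 to 5.16). Cyp2s1 stood at 40.2 against 133 CPM, 3.31-fold lower (2.30 to 4.93). Cyp2s1 and Cyp1b1, each with 1 UMI in hepatocyte-gated cells, were thus higher in different parts of the mesothelial class.

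Macrophage-gated cells were split by Kupffer markers (2 or more of 5 genes such as Clec4f, 942 cells), by Gpnmb (941 of the rest) and the remaining 207. Cyp4f18 was lower in both marked subsets: it stood at 40.8 CPM in Kupffer-marker cells and 69.9 CPM in Gpnmb cells, against 216 CPM in the remaining cells. Cyp4v3 was higher in both, at 43.0 and 41.0 CPM against 9.39 CPM. Of 10 Cyp genes, 3 were higher in Kupffer-marker cells (16.7% of all genes were) and 1 was lower (10.1% of all genes were), and of 9, 2 were higher in Gpnmb cells (11% of all genes were) and 1 was lower (12.3% of all genes were). The counts lower were near the share of all genes. The other genes higher in Kupffer-marker cells were Cyp3a11, 6.18-fold (1.65 to 51.9), and Cyp2f2, 5.16-fold (0.864 to 210.0), from 2 and 1 UMIs in the remaining cells. Cyp3a11 was also higher in Gpnmb cells, 3.29-fold (0.864 to 28.0). The summed gauge genes moved with these 2 genes, at 279.5 CPM in Kupffer-marker cells and 226 CPM in Gpnmb cells against 129 CPM in the remaining cells. The part of hepatocyte RNA in those calls was not tested. Both marked subsets share the remaining cells as their comparison.

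A list of 24 electron donors, haem enzymes, regulators and the excluded Cyp51 was read beside the Cyp genes. Of 20 with enough counts, 17 were higher in hepatocyte-gated than in lymphoid-gated cells, against 44.7% of all genes, and 0 were lower, against 13.2%. Several of the 17 reached 30 UMIs only through hepatocyte-gated cells, such as Nr1i2 (119 and 0 UMIs), Ppara (153 and 0) and Hnf4a (406 and 1). The count of 17 was thus in part set by this filter and by the choice of list. Por, the reductase that feeds every microsomal P450, was not among the 17, at 37.8 against 22.3 CPM, and its level in macrophage-gated cells was 192 CPM. Cyb5a, a small haem protein that can pass on electrons, stood at 6218 against 207 CPM. Alas1, the first enzyme of haem synthesis, stood at 623 against 10.9 CPM, and Hnf4a, a hepatocyte transcription factor, at 120.0 against 0.495 CPM. The receptors Nr1i3 (CAR), Nr1i2 (PXR) and Ppara stood at 80.1, 35.2 and 45.2 CPM in hepatocyte-gated cells, against at most 0.495 CPM. Fdx1l and Ahrr gave 0 UMIs in both.

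The same list was read between hepatocyte subsets. In pericentral-scored cells 3 of 20 were higher (7.38% of all genes were) and 0 lower (4.2% of all genes were): Por (56.7 against 20.9 CPM in periportal-scored cells), Ahr (39.4 against 11.0 CPM) and Hmox1, which breaks haem down (31.5 against 12.1 CPM). In low-albumin cells 3 of 20 were lower (6.89% of all genes were) and 1 higher (4.09% of all genes were): Por (17.1 against 45.4 CPM in high-albumin cells), Pgrmc1, a haem-binding partner (157 against 366 CPM), and Cyp51 (11.2 against 22.7 CPM) were lower, and Hmox1 (59.9 against 15.4 CPM) was higher. Hmox1 is also a macrophage gene, at 1416 CPM in macrophage-gated cells. In Clu-high cells 4 of 20 were higher (10.6% of all genes were) and 3 lower (14.4% of all genes were), so the count lower was near the share of all genes. Por, Pgrmc1, Ahr and Cyp51 were higher and Alas1 (258 against 668 CPM in the others), Nr1i3 and Nr1h4, the bile acid receptor, were lower. Alas1 was thus lower in the cells whose summed Cyp level was higher.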

How the data were processed

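Liver cells were profiled with the Singleron GEXSCOPE microwell kit, per the labels' protocols. The authors deposited UMI counts per gene and cell, not normalized, as 1 matrix that pools the 6 samples labelled CluKO. Per the submitters' processing notes the genome build is GRCm38. No aligner or counter is named in the sources used here. The 3 wild-type matrices were not analysed here because the files used here pair their rows with no gene names.

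Cells with at least 200 genes and at most 20% mitochondrial UMIs were kept (78 dropped). Scrublet (scanpy 1.11.5) marked 6 more (0.130%), so doublets may remain, and a version without the 5% highest scores was run. Counts were summed over cells of a class with numpy 2.4.6 and scipy 1.17.1 and given as CPM of the class's total. Hepatocyte-gated cells lie above Otsu's threshold of the log10 share of 8 genes; other classes needed at least 3 markers, and 246 cells with markers of another lineage were left out as mixed. Levels have exact Poisson, ratios conditional binomial and shares Clopper-Pearson 95% intervals; the code was tested on simulated counts. A side with 0 counts was set at 3 counts and its ratio given as a bound. Since the matrix is 1 sample, no p-value was computed. The 7 comparisons of cell sets share cells.

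Genes were named by rule: the 20 highest in hepatocyte-gated cells, those passing the free RNA limit elsewhere, the 6 highest and 6 lowest ratios in each comparison of hepatocyte subsets, and 8 genes always given. The members, lists and splits were chosen with earlier results of these data known. Promoters are from RefSeq.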

Additional observations from a re-analysis of the deposited data

How the results depend on the processing

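No paired analysis was possible because the cells carry no sample name and the matrix is 1 sample. The summed Cyp level of hepatocyte-gated cells was 2940 and 3314 CPM at 0.5 and 2 times the gate's threshold, 3782 at 4 times, 2709 with mixed cells kept (in that gate or in every class) and 3130 without the 5% highest doublet scores. In the zonation comparison (3 higher, 4 lower) the count higher in pericentral-scored cells was 5 at 2 times the threshold, with mixed cells kept (either way) and with the index cut at its median, 6 at 4 times the threshold and 10 with summed counts of at least 10; the count lower was 2 cut at the median and 2 with an index without Rgn and Ass1. Of the 26 Cyp genes lower in low-albumin cells, 12 were called within periportal-scored and 11 within pericentral-scored cells, where fewer cells and UMIs entered; log2 ratios changed sign for Cyp2e1 (0.24) and Cyp2c55 (0.60) within periportal-scored and Cyp2f2 (0.63) within pericentral-scored cells. In the Clu-high comparison (12 higher, 1 lower), 2 were lower at 0.5 times the threshold, with mixed cells kept (either way) and without the cell with the most Cyp2e1 UMIs, 6 were higher and 6 lower with Clu at 0.5% or more, 19 higher with summed counts of at least 10, 7 higher and 3 lower at 4 times the threshold, and 7 higher and 2 lower among pericentral-scored cells; Cyp7a1 changed sign with Clu at 0.5% or more (-0.95) and Cyp2c55 as a mean of per-cell shares (-0.13) and without that cell (-0.14). At 4 times the threshold, 1 Cyp gene was higher and 3 lower in Kupffer-marker cells and 4 lower in Gpnmb cells. The cause of these changes was not tested unless stated. The splits of hepatocytes on zonation, albumin and Clu overlap in cells. The other 151 counts and sums under alternatives stayed within 1.5 times or within counting error, the comparison with lymphoid-gated cells and the 28 pairs above free RNA among them. Settings with mixed cells kept in every class, 4 times the threshold, an index without Rgn and Ass1, and subsets within a zone, without Clu-high cells or without 1 cell were chosen after seeing the data. Depth limits the low genes: 32 of the 121 Cyp genes gave at least 30 UMIs in hepatocyte-gated cells.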

Other observations

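The steroid gene Cyp21a1 and the retinoid gene Cyp26a1 gave too few counts for the comparisons above. Cyp21a1, the steroid hydroxylase of the adrenal cortex, gave 24 UMIs in the kept cells, all 24 in hepatocyte-gated cells. Of these, 19 lay in Clu-high cells, and 11 lay in a single cell. Cyp26a1, which degrades retinoic acid, gave 24 of its 46 UMIs in hepatocyte-gated cells (7.09 CPM), while its relative Cyp26b1 gave 0 there. Cyp4b1-ps2, annotated as a pseudogene, gave 16 of its 33 UMIs in the 87 erythroid-gated cells (27.6 CPM), against 5 in the 766 hepatocyte-gated cells. The endothelial gene Cyp4b1, of the same subfamily and also on chromosome 4, gave 1 UMI in erythroid-gated cells. These genes were chosen after their values were seen.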
